A study of Homo sapiens with 16 samples.

Results

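The TM4SF genes encode small proteins that cross the plasma membrane several times and lie in the same membrane domains as integrins and growth factor receptors. They were described here across 3 human cancer cell lines with and without working STAG2. The members were TM4SF18, TM4SF1 and TM4SF4, which follow each other on chromosome 3 with no other protein-coding gene between them that had a row of its own on the array, and their relatives TM4SF5 on chromosome 17 and TM4SF20 on chromosome 2. They are 5 of the 18417 genes with a row of their own on the array, chosen by their names and because TM4SF18 was higher in HCT116 cells that had lost STAG2. TM4SF18 values in HCT116 are therefore given as a description, with no test. TM4SF19, the remaining gene of the family, shared its row with other genes and has no value here.

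The family differs in sequence from the true tetraspanins but resembles them in outline, and its best known member, TM4SF1, is a surface antigen of many carcinomas and of growing blood vessel endothelium, where it takes part in the formation of thin membrane projections. TM4SF4 is known from liver, bile duct and intestine, TM4SF5 from hepatic and pancreatic carcinoma, where it associates with integrins, and TM4SF20 for its control of the cleavage of the membrane-bound transcription factor CREB3L1. Little is known of TM4SF18. STAG2 is part of cohesin, which encircles DNA, keeps sister chromatids paired and folds chromosomes into loops, and its loss can be followed over genes that lie side by side.

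RNA from 16 growing cultures was measured, each on its own Affymetrix Human Gene 1.0 ST array. H4 and 42MGBA are brain tumour lines with a mutant STAG2, labelled as glioblastoma, and HCT116 is a colorectal cancer line with an intact gene. The STAG2-mutant H4 arrays were parental cells and non-recombinant clones 10 and 12, and they were set against knock-in clones 8-1, 8-3 and 88-1, corrected by Cre recombination. Parental 42MGBA cells and the pre-Cre knock-in clones 53 and 92 carried the label deficient, while post-Cre clones 53-1, 53-7 and 92-6 carried the label corrected. For HCT116, non-recombinant clones 24 and 27 kept wild-type STAG2, clones 7 and 21 were STAG2 knockouts, and there was no parental array. No group received a treatment. Each array stands for 1 clone or 1 parental culture, some corrected clones share a parent clone by their names, and clones differ in more than STAG2, so p-values measure the spread between these cultures only. Each difference is the deficient mean less the proficient mean in log2 units, where 1 unit is a doubling, and for arrays the small number per group limits the precision.

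The 250 bases before the start of each of the 3 chromosome 3 genes are shown because these neighbours differed in level and in how far the groups lay apart. They are RefSeq sequences of the build GRCh38.p14, written 5' to 3' on the strand of the gene, and capitals mark the matches to the motifs searched.

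TM4SF18 promoter, chr3:149333637-149333886 (minus strand): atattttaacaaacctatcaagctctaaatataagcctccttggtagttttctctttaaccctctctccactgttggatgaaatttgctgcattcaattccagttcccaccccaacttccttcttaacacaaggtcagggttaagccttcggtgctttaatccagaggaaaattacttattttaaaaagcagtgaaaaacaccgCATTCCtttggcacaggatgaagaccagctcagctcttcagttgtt

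TM4SF1 promoter, chr3:149377650-149377899 (minus strand): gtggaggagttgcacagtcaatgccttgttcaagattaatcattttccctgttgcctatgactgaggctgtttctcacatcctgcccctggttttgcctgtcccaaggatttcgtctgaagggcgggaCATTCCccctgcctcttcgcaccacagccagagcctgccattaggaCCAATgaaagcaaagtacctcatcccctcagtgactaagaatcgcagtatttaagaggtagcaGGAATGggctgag

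TM4SF4 promoter, chr3:149474447-149474696 (plus strand): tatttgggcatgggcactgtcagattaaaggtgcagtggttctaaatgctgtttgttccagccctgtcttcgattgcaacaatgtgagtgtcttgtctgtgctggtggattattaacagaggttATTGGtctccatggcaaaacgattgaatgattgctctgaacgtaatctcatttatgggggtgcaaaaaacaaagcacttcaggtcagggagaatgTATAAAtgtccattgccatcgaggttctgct

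The motifs searched on both strands of these windows, chosen with the sequences in view, were the TATA box TATAAA, the CCAAT box CCAAT, the TEAD motif GGAATG and the AP-1 motif TGANTCA. No matches overlapped, and TGANTCA had none. The TM4SF18 window held 1 GGAATG match, read on the opposite strand as CATTCC between bases 46 and 41 before the start. The TM4SF1 window held GGAATG at bases 13 to 8 and again, on the opposite strand, at 122 to 117, and CCAAT at 76 to 72. The TM4SF4 window held TATAAA at bases 31 to 26 and CCAAT on the opposite strand at 126 to 122. Of 35114 RefSeq promoters cut to the same length, 11.9% held GGAATG, 32.0% CCAAT, 10.7% TATAAA and 6.57% TGANTCA. GC content was 40% for TM4SF18, 50.8% for TM4SF1 and 43.2% for TM4SF4, against a median of 58% over all promoters. The CpG dinucleotides numbered 2, 4 and 4, against a median of 11, and 22.9% of all promoters held 2 or fewer. A match is a description of the letters and shows neither binding nor its absence.

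Before the members, the arrays were checked against their labels. STAG2 stood at 6.57, 6.62 and 6.96 on the 3 deficient H4 arrays and between 8.87 and 8.94 on the corrected ones, and at 6.57 and 7.14 in the HCT116 knockouts against 9.28 and 9.30 in wild-type clones. In 42MGBA the 3 arrays labelled corrected, at 5.41 to 5.65, overlapped those labelled deficient, at 4.75 to 5.60, so its RNA is no check on the 42MGBA labels. Array medians were 5.0 to 5.05 in 42MGBA against 6.23 to 6.30 in H4 and 6.24 to 6.29 in HCT116, so log2 levels of 42MGBA are not set against those of the other lines, and percentiles among the 33297 rows of an array are given in their place. Of 12 epithelial and colorectal markers, 10 lay above the array median on every HCT116 array, among them CDH1 and EPCAM, but only 5 on every H4 array and 6 on every 42MGBA array. Of 10 glial and mesenchymal markers, 5, 6 and 2 did so in H4, 42MGBA and HCT116, and GFAP, S100B, OLIG2 and SOX2 were in none of the 3 counts. Of 8 endothelial markers, 1, 2 and 2 lay above the median on every array of these lines, and PECAM1, CDH5 and KDR were in none. Many genes lie above the median in any line, and their share was not counted, so the counts alone name no cell type.

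TM4SF18 was higher in HCT116 knockouts than in wild-type clones. Its log2 level was 4.68 and 4.56 in wild-type clones 24 and 27, and 6.86 and 6.60 in knockout clones 7 and 21. The groups did not overlap, as for 40.7% of all tested genes in this comparison. The means, 4.62 ± 0.09 (SD, n = 2) and 6.73 ± 0.19 (SD, n = 2), differed by 2.11 on the log2 scale, a 4.31-fold higher level in the knockouts. As in any bulk RNA, more cells with the transcript and more transcript per cell cannot be told apart. Against the wild-type mean, knockout clone 7 lay 2.24 higher and clone 21 lay 1.97 higher. Within the arrays the gene moved from percentiles 25.6 and 27.2 to 54.6 and 59.1. Among the 12978 genes tested it was the 6th largest difference upward, and 6 genes in all were higher in the knockouts by at least 2. These values chose the gene, and 0.131% of the tested genes passed an adjusted p of 0.05 in this comparison.

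**Figure D1:**
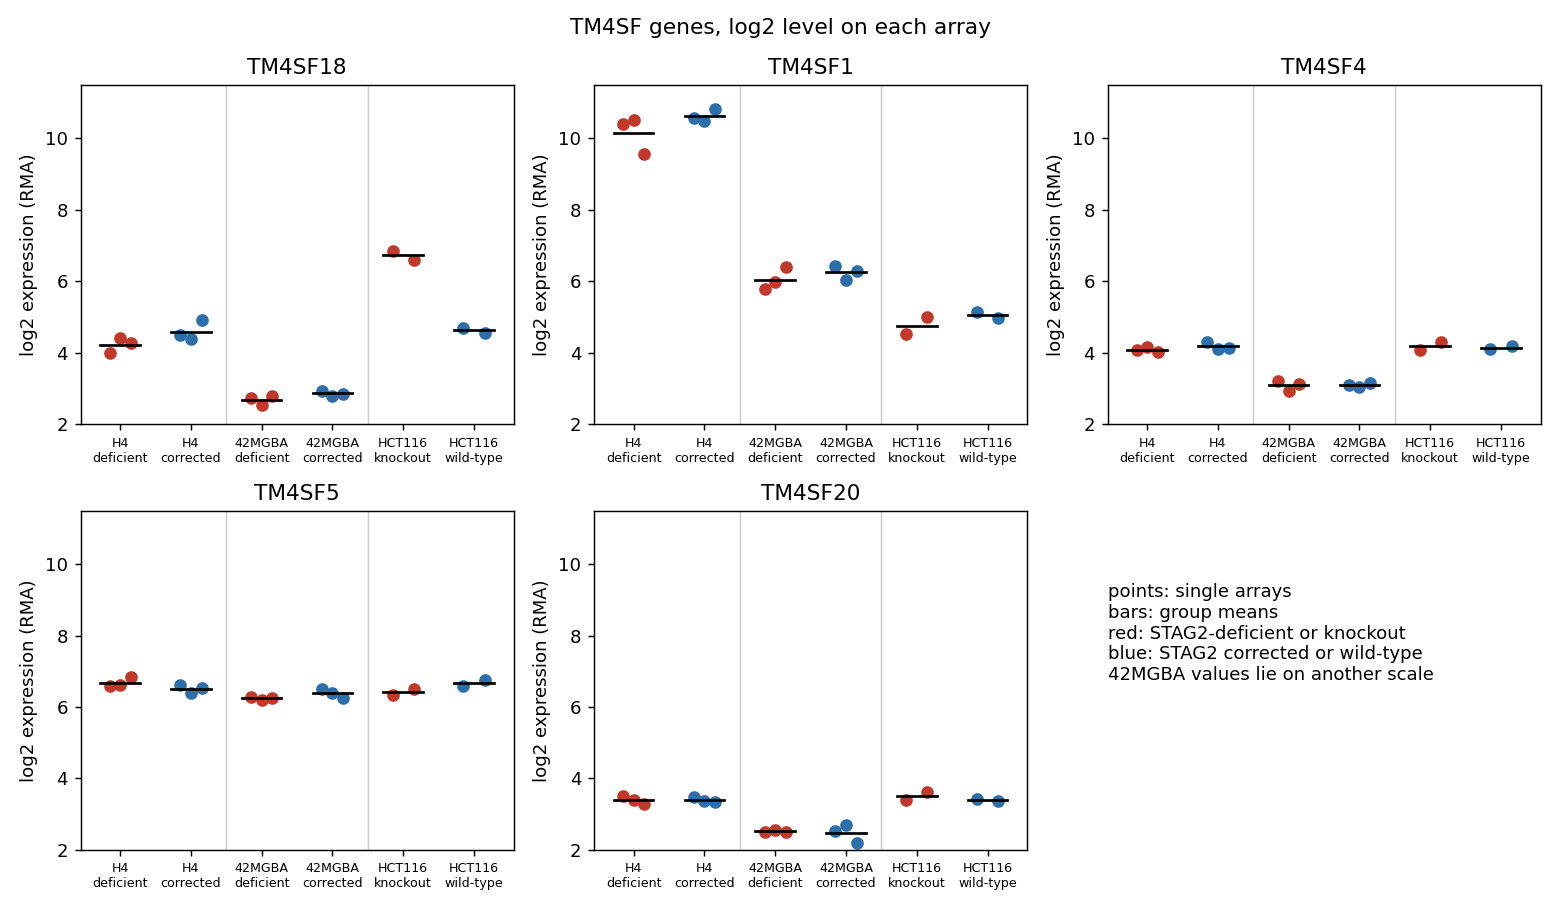
Log2 level of the 5 TM4SF genes (vertical axis, RMA values) on each of the 16 arrays, by line and STAG2 status. Points are single arrays, bars are group means, and 42MGBA values lie on another scale. TM4SF18 is higher on both HCT116 knockout arrays, at 6.60 and 6.86, than on any H4 or wild-type HCT116 array, and TM4SF1 lies between 9.57 and 10.81 in H4 and between 4.51 and 5.14 in HCT116.

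In H4 and 42MGBA TM4SF18 was dim in both STAG2 groups. In H4 it stood at 3.98 in the parental cells, 4.41 in clone 10 and 4.27 in clone 12, and at 4.48, 4.39 and 4.91 in the corrected clones 8-1, 8-3 and 88-1. The groups overlapped, with clone 10 above clone 8-3. In 42MGBA the arrays labelled deficient held 2.73, 2.54 and 2.78, all below the 2.94, 2.79 and 2.85 of the arrays labelled corrected. The 42MGBA groups did not overlap for 8.91% of all tested genes. Deficient H4 cells averaged 4.22 ± 0.22 (SD, n = 3) and corrected ones 4.59 ± 0.28 (SD, n = 3), a difference of -0.37 (SE 0.14, 95% interval -0.67 to -0.07). TM4SF18 was among the tested genes only through the 2 HCT116 knockout arrays, the only arrays of 16 on which it lay above the array median. By limma's moderated test with Benjamini-Hochberg adjustment over all tested genes the adjusted p was 0.184, so it did not pass. The direction was the same for all 3 deficient H4 arrays, which lay 0.18 to 0.61 below the corrected mean. Without clone 88-1 the difference was -0.21.

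In 42MGBA the difference of TM4SF18 was -0.17 (95% interval -0.47 to 0.13), with an adjusted p of 1.00 by limma. Between H4 and 42MGBA the differences themselves differed by -0.20 (95% interval -0.62 to 0.23, adjusted p = 0.776 by limma). The limit given for H4 holds for both p-values: only the HCT116 knockout arrays brought TM4SF18 into the tested set. The percentiles of TM4SF18 were 18.4 to 29.8 in H4 and 9.3 to 17.4 in 42MGBA. These lie near or under the lower quartile of the rows, so small differences there are between dim signals.

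**Figure D2:**
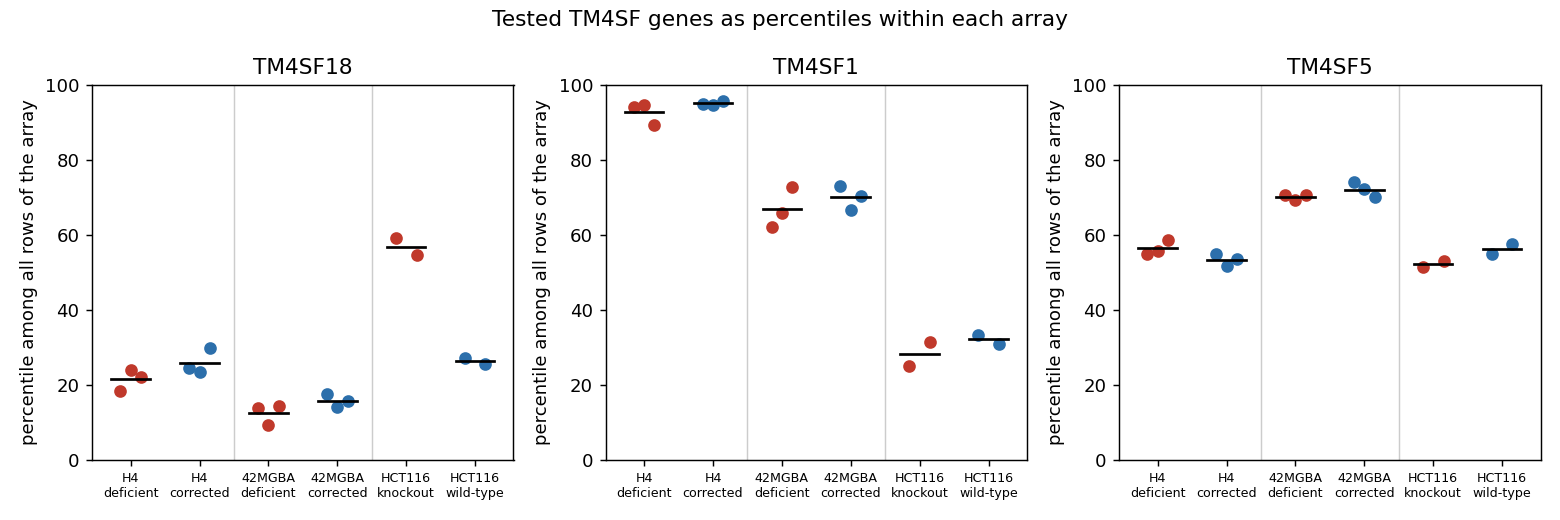
Position of TM4SF18, TM4SF1 and TM4SF5 among all rows of each array (vertical axis, percentile), by line and STAG2 status, with points for single arrays and bars for group means. TM4SF18 lies above the 50th percentile on the HCT116 knockout arrays only, at 54.6 and 59.1. TM4SF1 steps from 89.3 to 95.8 in H4 through 62.2 to 72.9 in 42MGBA to 24.98 to 33.4 in HCT116.

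TM4SF1, the next gene along the chromosome, differed widely between cell lines. In H4 it lay at percentiles of 89.3 to 95.8, with log2 levels of 10.40, 10.53 and 9.57 in parental cells and clones 10 and 12 and 10.58, 10.50 and 10.81 in the corrected clones 8-1, 8-3 and 88-1. In HCT116 it stood at 5.14 and 4.96 in wild-type clones 24 and 27 and at 4.51 and 5.0 in knockout clones 7 and 21. No array of one line came near an array of the other. Among STAG2-proficient cells the level in H4 was 5.58 higher on the log2 scale than in HCT116 (95% interval 5.05 to 6.12), 48.0-fold, with an adjusted p of 1.05e-10 by limma. Among deficient cells it was 5.41 higher (95% interval 4.88 to 5.95), 42.6-fold, with an adjusted p of 1.57e-10 by limma. In these comparisons 52.7% and 48.1% of all tested genes passed, so a difference between these lines is common in itself. TM4SF1 lay above the array median on 12 of 16 arrays, none of them from HCT116. The filter that let TM4SF1 into the tested set thus drew on H4 arrays, where it was high, and on no HCT116 array. Each side was also replicated only by cultures of the same line. The p-values for TM4SF1 therefore describe the separation of these cultures and are no independent test of the lines. TM4SF18 differed by -0.03 between proficient H4 and HCT116 cells. Between deficient cells it differed by -2.51. Both TM4SF18 values are given with no test, because the wild-type and knockout HCT116 arrays together chose the gene.

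In 42MGBA TM4SF1 lay between, at 5.78, 5.97 and 6.40 on the arrays labelled deficient and 6.43, 6.05 and 6.28 on those labelled corrected. The order of its percentiles was H4 above 42MGBA above HCT116 with no overlap between any 2 lines. The order of the lines was the same in deficient and in proficient cells. HCT116, the carcinoma line with the most epithelial markers above the median, was the lowest for this gene, and both brain tumour lines were higher.

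With STAG2 status TM4SF1 did not change past the threshold in H4 or 42MGBA. Deficient H4 cells averaged 10.17 ± 0.52 (SD, n = 3) and corrected ones 10.63 ± 0.16 (SD, n = 3), and the groups overlapped. The difference was -0.47 (95% interval -0.95 to 0.01), with an adjusted p of 0.321 by limma. Clone 12 lay 1.07 below the corrected mean, and the parental cells and clone 10 lay 0.23 and 0.10 below it. Without clone 12 the difference was -0.17, with an adjusted p of 0.814 by limma. In 42MGBA the difference was -0.21 (95% interval -0.69 to 0.27, adjusted p = 1.00 by limma), and in HCT116 the knockout mean was lower by 0.29, with overlapping groups. The H4 and 42MGBA differences differed by -0.26 (95% interval -0.94 to 0.42, adjusted p = 0.820 by limma), a comparison in which 0.254% of all tested genes passed. While TM4SF18 stood 2.11 higher in the knockouts, the adjoining TM4SF1 was therefore not higher.

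TM4SF4, the remaining gene of the chromosome 3 trio, stayed dim on every array. Its log2 levels were 4.02 to 4.29 over the 6 H4 arrays, 2.92 to 3.22 over the 6 42MGBA arrays and 4.08 to 4.29 over the 4 HCT116 arrays. The percentiles of all 16 arrays lay between 16.9 and 22.5. In HCT116, where TM4SF18 was higher in the knockouts, TM4SF4 stood at 4.11 and 4.18 in wild-type and 4.08 and 4.29 in knockout clones, and the groups overlapped in all 3 lines. The gene was above the array median on 0 of 16 arrays and was not tested.

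TM4SF5 was of middle level in every line and varied little. It stood at 6.59, 6.61 and 6.83 on the deficient H4 arrays and at 6.61, 6.39 and 6.53 on the corrected ones. In 42MGBA the arrays labelled deficient held 6.29, 6.18 and 6.26, and those labelled corrected 6.52, 6.39 and 6.26. In HCT116 it stood at 6.58 and 6.76 in wild-type and at 6.34 and 6.49 in knockout clones, a gap of -0.25. The HCT116 groups did not overlap, as for 40.7% of all tested genes. Deficient H4 cells differed by 0.17 from corrected ones (95% interval -0.05 to 0.38, adjusted p = 0.449 by limma) and 42MGBA cells by -0.14 (95% interval -0.36 to 0.07, adjusted p = 1.00 by limma), and these differed by 0.31 (95% interval 0.01 to 0.61, adjusted p = 0.427 by limma). Between H4 and HCT116 it differed by -0.16 in proficient cells (adjusted p = 0.242 by limma) and by 0.26 in deficient cells (adjusted p = 0.0712 by limma). The gene was above the array median on 16 of 16 arrays, at percentiles of 51.4 to 58.7 in H4 and HCT116 and of 69.3 to 74.2 in 42MGBA.

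TM4SF20 was dim on every array. Its log2 levels were 3.27 to 3.5 in H4, 2.20 to 2.68 in 42MGBA and 3.36 to 3.62 in HCT116, at percentiles of 3.2 to 13.3. Deficient and proficient arrays overlapped in each line, and with 0 of 16 arrays above the median it was not tested.

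Neither TM4SF1 nor TM4SF5 passed in H4, where 3.31% of the 12978 tested genes passed by limma, or in 42MGBA, where 0% passed by limma. At an unadjusted p under 0.05 they numbered 0 in both lines, against 2123 and 512 of all tested genes. TM4SF18 is left out of these counts because it came into the tested set through the arrays that chose it. Deficient and proficient groups did not overlap for 20.8% of the tested genes in H4, 8.91% in 42MGBA and 40.7% in HCT116, and nothing is read from the HCT116 share, since that comparison chose the members.

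The genes around the trio were followed to see whether the HCT116 difference reached past TM4SF18. Of the 10 protein-coding genes on each side in the RefSeq order, 14 of 20 were tested. By limma 0 of 14 passed in H4, 42MGBA or HCT116, where 3.31%, 0% and 0.131% of all tested genes did. At an unadjusted p under 0.05 they numbered 2, 0 and 1, against 2123, 512 and 1016 of the 12978 tested genes. Their differences ran from -0.26 to 0.25 in H4, from -0.29 to 0.14 in 42MGBA and from -0.32 to 0.38 in HCT116, with medians of -0.05, -0.05 and -0.02 beside 0.02, -0.03 and -0.01 over all tested genes. In HCT116 the differences nearest to the trio were -0.01 for HLTF, a helicase-like factor of DNA damage tolerance, 0.38 for HPS3, a protein of lysosome-related organelles, 0.18 for CP, which encodes the copper protein ceruloplasmin, -0.10 for WWTR1, which encodes the Hippo pathway coactivator TAZ, -0.03 for COMMD2 and 0.12 for RNF13, a ubiquitin ligase of endosomes. The adjusted p of HPS3, the highest of these, was 0.625 by limma, and CP was not tested. HLTF, COMMD2 and WWTR1 changed sign under other settings.

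**Figure D3:**
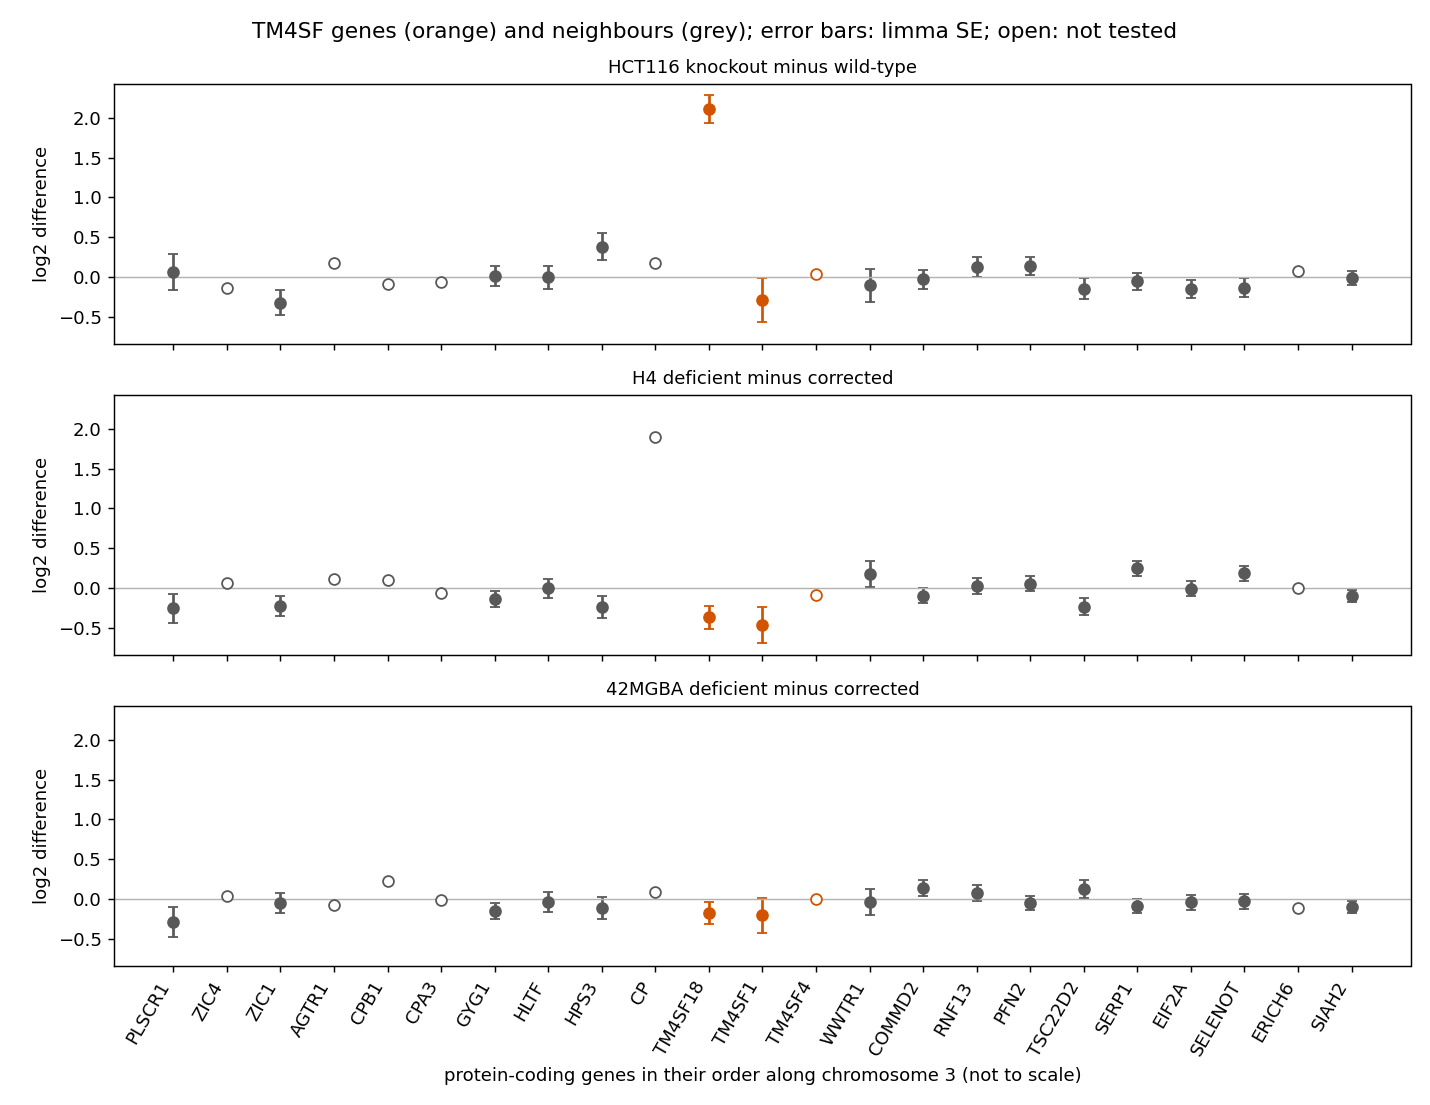
Log2 difference, deficient minus proficient (vertical axis, same scale in the 3 panels), for the TM4SF trio in orange and the 10 protein-coding genes on each side in grey, in chromosome order and not to scale. Error bars are limma standard errors and open points were not tested. TM4SF18 stands at 2.11 in HCT116 while the 14 tested neighbours lie between -0.32 and 0.38, and in H4 the open point at 1.89 is CP.

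CP, which adjoins TM4SF18 on the other side, differed widely between H4 clones. It stood at 5.57 in parental H4 cells, 8.28 in clone 10 and 3.83 in clone 12, against 3.90, 3.85 and 4.26 in the corrected clones. Clone 10 was its only array above the array median, so CP was not tested. The H4 means differed by 1.89 with all arrays and by 0.70 without clone 10, and the groups overlapped. TM4SF18 in clone 10, at 4.41, did not stand apart from the other H4 arrays. In the other lines CP was at 2.46 to 2.74 and 3.30 to 3.59.

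WWTR1, on the TM4SF4 side, was present in all groups. Deficient H4 cells averaged 9.44 ± 0.23 (SD, n = 3) and corrected ones 9.27 ± 0.10 (SD, n = 3). The means were 8.40 ± 0.42 (SD, n = 3) and 8.44 ± 0.06 (SD, n = 3) for the same groups of 42MGBA and 8.22 ± 0.01 (SD, n = 2) in knockout and 8.33 ± 0.18 (SD, n = 2) in wild-type HCT116 cells. HPS3 was at 9.87 ± 0.11 (SD, n = 3) and 10.11 ± 0.13 (SD, n = 3) in H4 and at 8.58 ± 0.03 (SD, n = 2) in knockout and 8.20 ± 0.10 (SD, n = 2) in wild-type HCT116 cells.

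**Figure D4:**
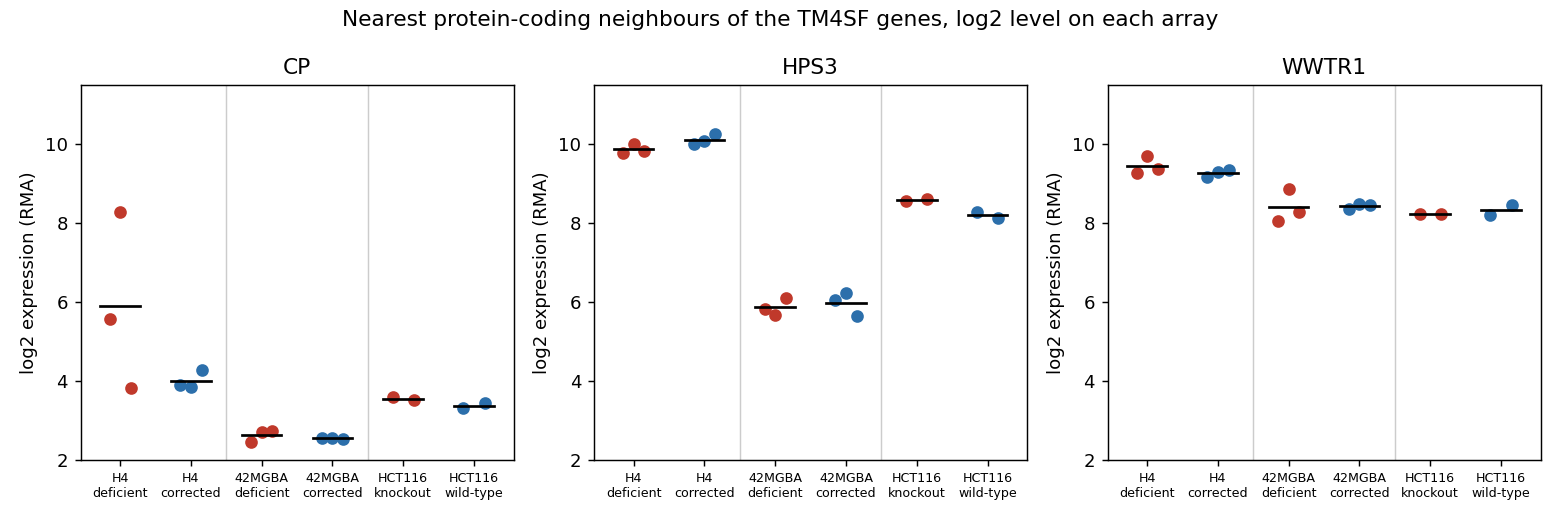
Log2 level (vertical axis, RMA values) of 3 near neighbours of the trio, CP, HPS3 and WWTR1, on each array by line and STAG2 status, with points for single arrays and bars for group means. CP ranges from 3.83 to 8.28 over the deficient H4 arrays and lies within 3.30 to 3.59 in HCT116, and WWTR1 lies above 8 on every array.

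The proteins that TM4SF members resemble or work with were examined as lists written from textbook knowledge. Of 33 true tetraspanins, scaffold proteins of membrane domains, 25 were tested. In H4 CD9, a tetraspanin of adhesion and exosomes, fell by 0.98 on the log2 scale (SE 0.15, adjusted p = 0.00382 by limma). TSPAN13 rose by 0.88 (SE 0.18, adjusted p = 0.0190 by limma), from 9.11 ± 0.36 (SD, n = 3) to 9.99 ± 0.18 (SD, n = 3). At an unadjusted p under 0.05 by limma there were 8 of 25 in H4, beside 2123 of the 12978 tested genes. In 42MGBA and HCT116 0 of 25 passed by limma, with 1 and 3 at an unadjusted p under 0.05. The largest of those in HCT116 was TSPAN7, at 0.84 (adjusted p = 0.485 by limma). The list medians were 0.10, 0.04 and 0.04 in H4, 42MGBA and HCT116, beside 0.02, -0.03 and -0.01 over all tested genes. Of all tested genes 3.31% passed in H4, 0% in 42MGBA and 0.131% in HCT116. In 42MGBA and HCT116 512 and 1016 of the 12978 tested genes had an unadjusted p under 0.05 by limma. The CD9 call held when each H4 array was left out in turn but was lost with each line fitted alone (adjusted p = 0.0712). The TSPAN13 call was lost there too (adjusted p = 0.0950), with parent clones averaged (adjusted p = 0.0510), and without clone 10 (adjusted p = 0.0609) or clone 8-3 (adjusted p = 0.0824).

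Of 14 partners of the family, integrins, receptors and downstream proteins, all were tested. EGFR, the epidermal growth factor receptor, fell by 1.03 in H4 (SE 0.15, adjusted p = 0.00215 by limma), from 8.97 ± 0.11 (SD, n = 3) in corrected to 7.94 ± 0.19 (SD, n = 3) in deficient cells. It was the 1 partner to pass in H4, and its difference was -0.41 in 42MGBA and -0.30 in HCT116, neither past the threshold (adjusted p = 1.00 and 0.740 by limma). ITGB4, the integrin subunit of hemidesmosomes, fell by 0.86 in HCT116 knockouts (SE 0.12, adjusted p = 0.00642 by limma), from 8.55 ± 0.23 (SD, n = 2) to 7.69 ± 0.03 (SD, n = 2). That call was lost without wild-type clone 27 (adjusted p = 0.0985), without the 42MGBA arrays (adjusted p = 0.121) and with each line fitted alone (adjusted p = 0.474). In 42MGBA none of the 14 passed (0 by limma), and at an unadjusted p under 0.05 there were 3, among them ITGA6, a laminin-binding integrin subunit, at -1.52 with no overlap (adjusted p = 1.00 by limma). Groups did not overlap for 8.91% of all tested genes in that line. CREB3L1, the substrate under TM4SF20, differed by -0.24 in 42MGBA (adjusted p = 1.00 by limma). The list medians were 0.01, -0.08 and -0.05 in H4, 42MGBA and HCT116, beside 0.02, -0.03 and -0.01 over all tested genes. Of all tested genes 3.31%, 0% and 0.131% passed in these lines. At an unadjusted p under 0.05 by limma there were 2 partners in H4 and 1 in HCT116. Of the 12978 tested genes 2123, 512 and 1016 had such a p in H4, 42MGBA and HCT116.

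Of 22 genes known as targets of YAP and TAZ, whose TAZ gene adjoins the trio, 2 fell in H4, where 260 of the 12978 tested genes fell. They were FOXF2, a forkhead transcription factor of mesenchyme, at -0.67 (adjusted p = 0.0203 by limma), and MYOF, a membrane repair protein, at -0.47 (adjusted p = 0.0414 by limma). The list median in H4 was -0.26, and 18.2% of its genes were above 0, beside 54.4% of all tested genes. At an unadjusted p under 0.05 by limma there were 8 of 22 in H4, beside 2123 of the 12978 tested genes. In 42MGBA and HCT116 0 of 22 passed by limma, with 1 and 0 at an unadjusted p under 0.05, and the medians were 0.04 and -0.00. Over all tested genes 0% and 0.131% passed there, and 512 and 1016 of 12978 had an unadjusted p under 0.05 by limma. The FOXF2 call was lost without clone 12 (adjusted p = 0.0894) or clone 8-1 (adjusted p = 0.0784), without the 42MGBA arrays (adjusted p = 0.0580) and with each line fitted alone (adjusted p = 0.102). The MYOF call was lost without clones 10, 12, 8-1 or 8-3 (adjusted p of 0.110 to 0.153), without the 42MGBA arrays (adjusted p = 0.0720), with each line alone (adjusted p = 0.131) and with parent clones averaged (adjusted p = 0.110). The H4 arrays carry the same shared corrected clones in every list, so these counts are not independent of each other.

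The genes whose pattern was most like a member's were named by Pearson's r over the 16 arrays, as a description in which arrays of a line share that line. For TM4SF18 the nearest by percentile were ANGPT2, an angiopoietin of vessel remodelling, at r = 0.933, NEBL, an actin-binding protein, at 0.899 and UQCRC2, a subunit of the mitochondrial respiratory chain, at 0.894. ANGPT2 had a mean log2 level of 4.81 in wild-type and 7.87 in knockout HCT116 clones, and 4.71 and 4.79 in deficient and corrected H4 cells. By deviation from each line's mean, ANGPT2 (0.924) and NEBL (0.910) again came first, followed by ITGB8, an integrin subunit that activates TGF-beta, at 0.893. ITGB8 was at 5.22 in wild-type and 7.74 in knockout clones, and NEBL at 6.42 and 7.28. The range of TM4SF18 over the arrays of a line was 2.30 in HCT116 against 0.929 in H4 and 0.395 in 42MGBA. Its values of r therefore draw on the HCT116 arrays that chose the gene, and they are no separate evidence about it.

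For TM4SF1 the nearest by percentile were ZIC1, a neural transcription factor that is also among the neighbours on chromosome 3, at r = 0.993, GSTM3, a glutathione transferase, at 0.992 and FAT4, an atypical cadherin, at 0.989. ZIC1 stood at 6.98 and 7.20 in deficient and corrected H4 cells and at 4.80 and 4.47 in wild-type and knockout HCT116 cells. By deviation from the line means the first were RBMS3, an RNA-binding protein also on the YAP and TAZ list, at 0.891, NSD3, a histone methyltransferase, at 0.848 and ZNF425, a zinc finger protein, at 0.832. For TM4SF5 the nearest by percentile were PIANP at 0.987, LOC162137 at 0.986 and SPSB2 at 0.986. In H4 and HCT116 the group means of PIANP ran from 5.75 to 6.04 on the log2 scale. The 42MGBA means, on that line's own scale, were 5.53 on deficient and 5.70 on corrected arrays. TM4SF5 percentiles were higher in 42MGBA, whose arrays lie on another scale. How much of these values of r comes with that scale was not tested. Between TM4SF1 and TM4SF18 themselves r was -0.531 by percentile and -0.085 by deviation from the line means.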

How the data were processed

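Each of 16 cultures gave 1 Affymetrix Human Gene 1.0 ST array. The authors deposited log2 expression values of 33297 rows. The submitters' processing notes name RMA and Affymetrix Expression Console. Their versions and the genome build are not given in the sources used here. The range of the values shows a log2 scale. The 42MGBA arrays lie on another scale, for a reason not given in the sources used here.

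Rows with 1 gene in the platform annotation (19460, or 18417 genes) were used, 19429 with symbols updated through RefSeq. The row with the highest mean stood for a gene with several rows (769 genes). A gene was tested if above the array median on at least 2 arrays (12978 genes). The fit (limma 3.58.1, R 4.3.3, with lmFit and eBayes) held 6 groups over 16 arrays with 1 shared spread per gene, two-sided, with Benjamini-Hochberg adjustment within a comparison and a threshold of 0.05. The script was tested on simulated data. Arrays of a line correlated at 0.986 or more and none repeated another (highest 0.994).

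Genes were named by rule: STAG2, the family, the 3 nearest neighbours on each side, up to 4 genes per list and comparison by p, any that passed, and the 3 most alike. The group means and near neighbours plotted were chosen after their values were seen. Members and lists were chosen with earlier results of these data known. Alternatives changed the filter, normalization, moderation, arrays in the fit, rows and clones. Protein sequences were not used here.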

Additional observations from a re-analysis of the deposited data

Results flagged for a closer look

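TM4SF18 was flagged because its STAG2 difference went one way in 42MGBA and the other in HCT116. Every 42MGBA array labelled deficient lay below every array labelled corrected, both HCT116 knockouts lay above both wild-type clones, and the difference in 42MGBA minus that in HCT116 was -2.28. This difference was not tested, since the HCT116 values chose the gene. In 42MGBA the nearest arrays of the 2 groups stood at 2.78 (clone 92) and 2.79 (clone 53-7), both dim. Groups did not overlap for 8.91% of all tested genes in 42MGBA and for 40.7% in HCT116. STAG2 RNA is no check on the 42MGBA labels.

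ITGB4 was flagged because its difference in H4 minus that in HCT116 was 0.90 (SE 0.15, adjusted p = 0.0289 by limma), past the threshold. Deficient H4 cells held 5.61 ± 0.10 (SD, n = 3) and corrected ones 5.58 ± 0.14 (SD, n = 3), and in HCT116 it was lower in both knockouts. In H4 ITGB4 lay below the array median, at percentiles of 37.3 to 41.1, so a fall there may go unseen. Its HCT116 call was lost in the alternative fits given above.

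STAG2 was flagged for the labels of 42MGBA. Its difference in H4 minus that in 42MGBA was -1.89 (adjusted p = 0.00902 by limma), and in 42MGBA minus that in HCT116 it was 2.14 (adjusted p = 0.0140 by limma).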

How the results depend on the processing

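Over the alternatives, 459 of 468 values of the 5 TM4SF genes in 30 comparisons counted as unchanged. Where a test was run, a value had to stay on the same side of the threshold with the same direction. Without a test, it had to move by less than the replicate spread. A difference that never passed thus counts as unchanged while it keeps its direction. The count is therefore no measure of support for a difference. The TM4SF18 difference in HCT116 ranged from 1.97 to 2.24, and TM4SF1 between H4 and HCT116 from 5.43 to 5.67 in proficient and from 5.17 to 5.71 in deficient cells. The near-zero TM4SF18 difference between proficient H4 and HCT116, -0.03, turned to 0.050 with clones of a parent clone averaged, and ranged from -0.19 to 0.074 with each array left out, at 0.027 without clone 8-1, 0.074 without clone 8-3 and 0.032 without clone 24. The TM4SF1 difference in H4 minus 42MGBA turned to 0.041 without clone 12. It ranged from -0.44 to 0.041 with each array left out and from -0.51 to 0.041 over all alternatives. Small HCT116 differences of neighbours also changed sign: COMMD2 to 0.0024 and HLTF to 0.024 after quantile normalization, and with arrays left out COMMD2 ranged from -0.18 to 0.12 (without clone 21), HLTF from -0.28 to 0.27 (without clone 7, and 0.056 without clone 27) and WWTR1 from -0.23 to 0.022 (without clone 27). NT5E, a YAP and TAZ target at -1.13 in HCT116, turned to 0.46 without clone 21 and was -2.72 without clone 7.

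The 429 genes called in H4 became 34 with each line fitted alone, 165 with parent clones averaged and 190 without the 42MGBA arrays, an alternative chosen after seeing the data. With single arrays left out they ranged from 169 to 631, at 169 without clone 8-3, 195 without 12, 223 without 8-1, 231 without 88-1 and 282 without 10. The 17 called in HCT116 became 5 with the upper quartile filter, 10 with an intensity trend, 3 with each line alone, 10 with parent clones averaged, 3 without 42MGBA, and 5 (without clone 27) to 77 (without clone 7) with arrays left out, and 47 without clone 21. The 0 in 42MGBA became 2 without clone 92 and 9 without clone 53-1, between 0 and 9 in all, and ITGA6 then passed (adjusted p = 0.0198 and 0.0489). CD9 in H4 was lost with each line alone (adjusted p = 0.0712), as was STAG2 in HCT116 (adjusted p = 0.0616). The cause of these changes was not tested. The groups share no replicate numbers in the labels, but some 42MGBA clones share a parent clone by name. With the parent clone as a block and the parental array left out, 42MGBA gave -0.11 for TM4SF1, -0.21 for TM4SF18 and -0.15 for TM4SF5 (adjusted p = 0.911, 0.722 and 0.798 by limma). Here too TM4SF18 was in the tested set only through the HCT116 knockout arrays. The stricter filter left TM4SF18 and TM4SF5 untested. TM4SF4 and TM4SF20 lie in the dim range, where a change may go unseen.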
